A study of Homo sapiens with 4 samples.

Results

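The genes described here encode the translation initiation factors, together with the kinases and binding proteins named after them. They were chosen by name: every gene with an EIF symbol numbered 1 to 6 in the platform's probe-to-gene table, using only probe sets listed for 1 gene. This gave 53 of 19775 genes, with 131 probe sets. Of these, 49 are protein-coding and 4 are noncoding RNAs named after a neighbouring factor gene (EIF1B-AS1, EIF2AK3-AS1, EIF2AK3-DT and EIF3J-DT). A gene's level was read from its brightest probe set, by the mean over all 4 arrays.

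RNA came from HCT116, an established human colon cancer line, kept without serum for 24 h and then for 72 h either at 1% oxygen (hypoxia) or at 21% oxygen (normoxia). Both groups therefore share the serum starvation, and no serum-fed cells were measured. Each group held 2 arrays, lettered A and B in the labels. The labels do not say whether the letters mark separate cultures, so a p-value reflects only how far these arrays differ, which may be technical, and so small a number of arrays limits the precision. In such bulk RNA, fewer cells of a type and less RNA per cell cannot be told apart.

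Translation of most mRNAs starts when eIF2, carrying GTP and the initiator tRNA, joins the small ribosomal subunit with eIF1, eIF1A, eIF3 and eIF5. The cap-binding factor eIF4E, the scaffold eIF4G and the helicase eIF4A bring the mRNA, eIF5B helps the large subunit to join, and eIF2B reloads eIF2 with GTP for the next round. Cells slow this process by phosphorylating the alpha subunit of eIF2, which turns eIF2 into an inhibitor of eIF2B, or by releasing the eIF4E-binding proteins, which compete with eIF4G for eIF4E. Both brakes are known to be used in low oxygen, the first through the kinase PERK and the second through loss of mTORC1 activity. They act on proteins, which mRNA arrays do not measure.

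In hypoxia the mRNA of the eIF2 alpha subunit, 3 of 5 eIF2B subunits and 2 of 4 eIF2 alpha kinases fell, while the kinase gene EIF2AK3 (PERK) rose about 4.01-fold in mean signal. Of 12 tested eIF3 subunit genes, 3 were called higher and 4 lower on the deposited scale, but 0 higher after quantile normalization. The cap-binding genes and the eIF4E-binding protein genes had 0 calls among 6 tested. Of the 48 initiation factor genes past the filter on low signal, limma called 22, with a Benjamini-Hochberg adjusted p below 0.05 taken as a call. Of these, 7 were higher and 15 were lower in hypoxia. Over all 12636 genes tested, 38.0% were called, 15.3% higher and 22.8% lower, against 45.8% among initiation factor genes. This background was not matched for signal. With the filter at the 75th percentile, 55.3% of all genes were called, and 21 of 45 initiation factor genes. Differences are hypoxia minus normoxia of log2(signal + 23.7), a scale that understates the changes of dim genes, and their median was -0.13, against -0.03 over all genes tested. The groups did not overlap in 39 initiation factor genes, or 81.2%, against 72.0% of all genes. Of these, 15 had both hypoxia arrays above normoxia (34.1% of all genes did) and 24 had both below (37.9% of all genes).

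**Figure D1:**
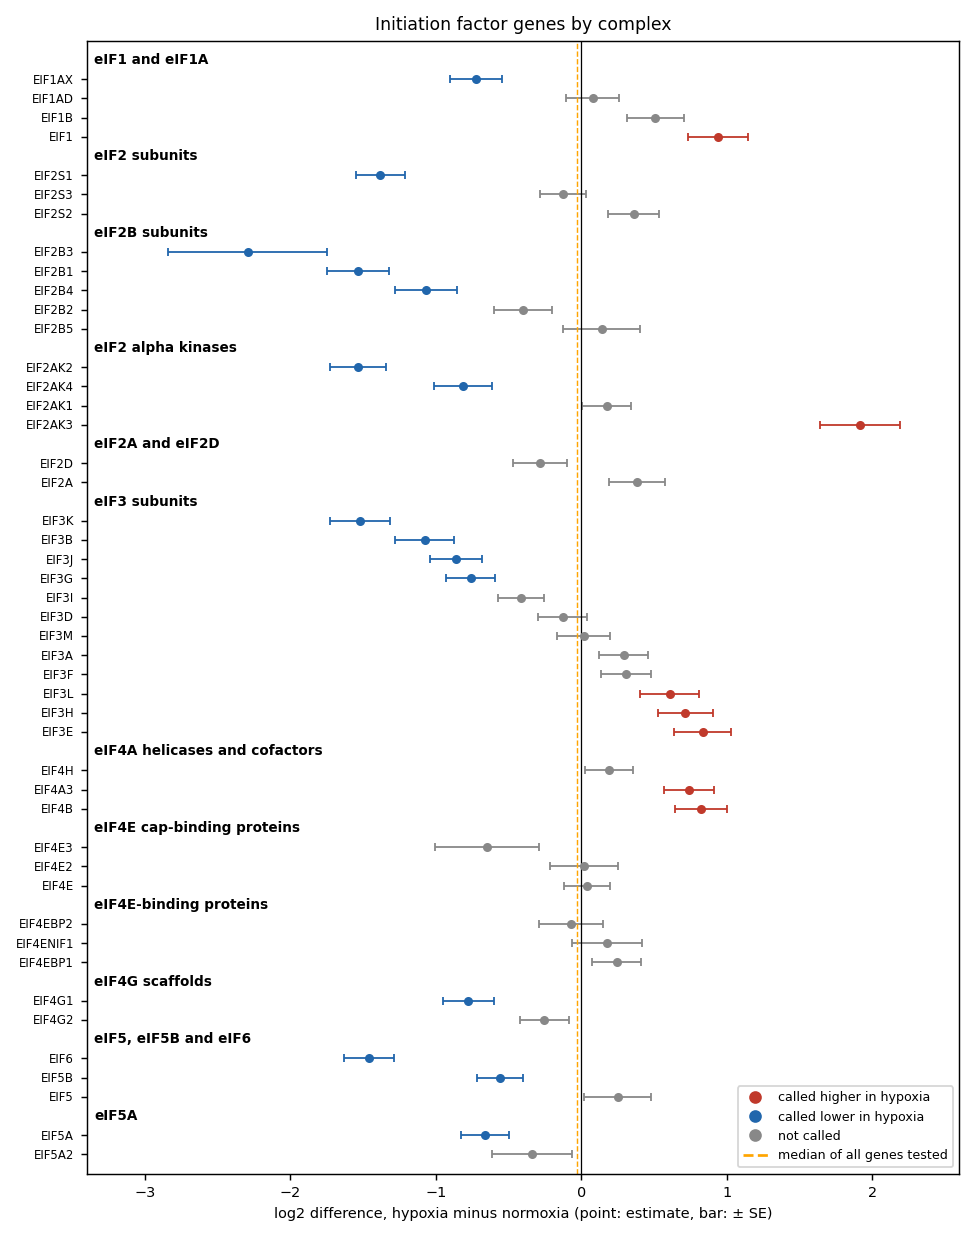
Log2 difference (hypoxia minus normoxia, horizontal axis) with its SE for each tested initiation factor gene, grouped by complex and coloured by call; EIF1AY and EIF3J-DT are not drawn. The eIF2B subunits lie mostly to the left, eIF3 spreads over both sides from -1.52 to 0.83, and EIF2AK3 stands alone at 1.91.

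Most initiation factor genes were measured well above background: the Bacillus controls, which no human RNA should match, reached 305 in hypoxia and 121 in normoxia, and 1 called gene (EIF2B3) had a group mean under these limits, in hypoxia. The oxygen labels were checked on hypoxia genes. The signal of NDRG1 was 3599 and 2803 on the normoxia arrays and 56249 and 47993 on the hypoxia arrays, and VEGFA was also higher on both hypoxia arrays. Of 7 colon epithelial markers 7 passed the filter, with EPCAM, CDH1, KRT8 and KRT18 at signals from 4913 to 29321, while KRT20, CDX2 and VIL1 stayed between 23.0 and 217. Of 5 fibroblast markers 4 passed, with a summed signal of 679.9 and 1162 in normoxia and of 2355 and 2777 in hypoxia, mainly from COL1A1. Of 4 leukocyte markers with a probe set 0 passed (summed signal 80.3 to 356), and of 4 endothelial markers 1 passed, with a summed signal of 105 and 292 in normoxia and of 437 and 348 in hypoxia. The part of the fibroblast and endothelial markers in the results was not tested. All directions are relative to the other genes, since the deposited scaling fixes each array's trimmed mean at 499.9. Scaling instead to the spiked hybridization controls moved the median of all genes to -1.40. Under it 0 initiation factor genes were called higher and 29 lower, and their median of -1.58 lay 0.18 under that of all genes. Of all 12636 genes, 52 were then called higher and 5514 lower.

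The kinases that phosphorylate eIF2 alpha moved in different directions. EIF2AK3 encodes PERK, the kinase of the endoplasmic reticulum membrane that senses unfolded proteins. Its signal was 1412 and 1346 on the normoxia arrays A and B, and 3809 and 7263 on the hypoxia arrays. Both hypoxia arrays lay far above normoxia, and hypoxia B lay well above hypoxia A. The log2 difference was 1.91 ± 0.27 SE (adjusted p = 8.68e-04, limma), with 1.42 for the letter A and 2.41 for the letter B. The call held in 14 of 16 alternative settings. It was lost with the hybridization controls (0.47) and when all probe sets of a gene were averaged (1.60, adjusted p = 0.0588), where a second, dim set with a mean signal of 46.8 enters with equal weight.

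EIF2AK2 encodes PKR, the interferon-induced kinase that senses double-stranded RNA. Its signal fell from 4774 and 4219 in normoxia to 1336 and 1757 in hypoxia, with no overlap. The log2 difference was -1.54 ± 0.19 SE (adjusted p = 4.70e-04), and both other probe sets of the gene went the same way, at -1.49 and -1.15. EIF2AK4 encodes GCN2, the kinase that senses uncharged tRNA. It fell from 1934 and 1674 to 955 and 1080.1 (log2 difference -0.81 ± 0.20 SE, adjusted p = 0.0114). Leaving out normoxia A (log2 difference -0.71) or normoxia B (-0.91) ended the call. The only other probe set past the filter stood at 0.20, with dim signals from 178 to 278 and overlapping groups.

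EIF2AK1 encodes HRI, the kinase that senses heme shortage and mitochondrial stress. Its signal was 7271 and 7173 in normoxia and 7452 and 8922 in hypoxia, a log2 difference of 0.17 ± 0.17 SE that was not called (adjusted p = 0.439). A second, dimmer probe set of EIF2AK1 gave -1.91. The kinase mRNAs thus ranged from -1.54 to 1.91. EIF2AK3-AS1 and EIF2AK3-DT, the noncoding RNAs named after the PERK gene, did not pass the filter, with all their signals at or under 122.

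**Figure D2:**
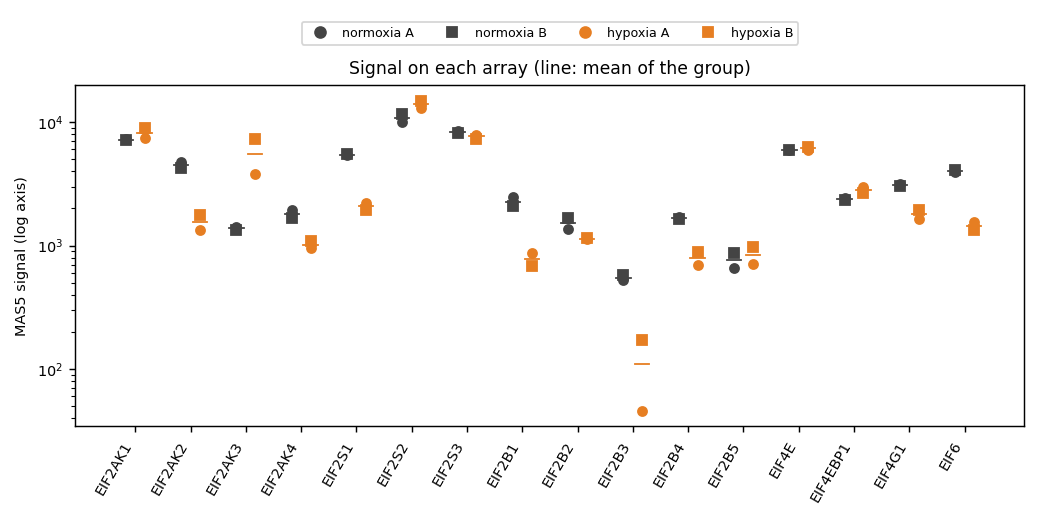
MAS5 signal (logarithmic vertical axis) on each array for the kinases, the eIF2 and eIF2B subunits, EIF4E, EIF4EBP1, EIF4G1 and EIF6; circles are the A arrays, squares the B arrays, and short lines the group means. The orange hypoxia points of EIF2AK3 lie above normoxia, those of EIF2AK2, EIF2S1, EIF2B1 and EIF6 lie below, and those of EIF4E lie level with it.

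Of the eIF2 subunits, the alpha subunit gene EIF2S1, whose product carries the phosphorylation site of the kinases, fell from 5368 and 5528 to 2225 and 1937. The log2 difference was -1.38 ± 0.17 SE (adjusted p = 3.93e-04), and the arrays within a group lay close together. Other probe sets of EIF2S1 gave -0.62 and -0.29, so its size depends on the probe set while its sign does not. The beta subunit gene EIF2S2 was not called (log2 difference 0.36 ± 0.18 SE, adjusted p = 0.134). A second, dim probe set of EIF2S2 stood at -2.50, and averaging the sets gave -1.07 with a call. The gamma subunit gene EIF2S3, whose product binds GTP and the initiator tRNA, was not called either (-0.13 ± 0.16 SE), with its other sets at -0.53 and -0.11.

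The exchange factor eIF2B is built of a catalytic pair, gamma and epsilon, and a regulatory group of alpha, beta and delta. Of its 5 genes 3 fell and 0 rose, with a median log2 difference of -1.06. The alpha subunit gene EIF2B1 fell from 2457 and 2083 to 863 and 679 (log2 difference -1.53 ± 0.21 SE, adjusted p = 7.42e-04). The delta subunit gene EIF2B4 fell from 1712 and 1648 to 702 and 889.9 (-1.06 ± 0.21 SE, adjusted p = 0.00431). It was not called when normoxia A (log2 difference -1.04) or B (-1.09) was left out. The gamma subunit gene EIF2B3 fell from 523 and 575 to 45.8 and 172 (-2.29 ± 0.55 SE, adjusted p = 0.0102). Its hypoxia values differ widely and lie under the 305 reached by the Bacillus controls, so the size of its fall is uncertain: it was -1.68 with a pseudocount at the median of all values and -2.61 with a pseudocount of 1. On the scale used throughout it was -2.98 for the letter A and -1.61 for the letter B. The call ended with normoxia A or B left out, although the log2 difference stayed at -2.36 and -2.23. The spread then came from the hypoxia arrays alone.

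The remaining eIF2B genes were not called. EIF2B2, the beta subunit gene, had a log2 difference of -0.40 ± 0.20 SE (adjusted p = 0.148), with both hypoxia values under both normoxia values. EIF2B5, the gene of the catalytic epsilon subunit, had 0.14 ± 0.26 SE (adjusted p = 0.707), with overlapping groups. The genes of the alternative factors EIF2A and EIF2D, which can also deliver initiator tRNA, were not called, at 0.38 ± 0.19 and -0.28 ± 0.19 SE.

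Factors that select the start codon were also divided. EIF1, which guards against the wrong start codon, was called higher, from 23875 and 32154 to 54780.1 and 51533 (log2 difference 0.94 ± 0.21 SE, adjusted p = 0.00714). All 6 other probe sets of EIF1 past the filter were positive, from 0.06 to 0.92. EIF1AX, which encodes eIF1A, fell from 5326 and 4434 to 3155 and 2724 (-0.72 ± 0.18 SE, adjusted p = 0.0113). Its 3 other probe sets were also negative, down to -2.30. The call of EIF1AX ended when normoxia A (log2 difference -0.59) or B (-0.86) was left out.

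The paralogue EIF1B and EIF1AD, a related gene, had log2 differences of 0.51 ± 0.20 SE (adjusted p = 0.0690) and 0.08 ± 0.18 SE and were not called. EIF1AY, on the Y chromosome, passed the filter and was not called; its values are not given. EIF5, which makes eIF2 hydrolyse GTP at the start codon, was not called (0.25 ± 0.23 SE, adjusted p = 0.418).

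The large scaffold eIF3 holds the small subunit, the other factors and the mRNA together. Of 13 subunit genes 12 were tested, and EIF3C did not pass the filter with its only probe set listed for 1 gene. EIF3K fell most, from 9868 and 11325 to 4424 and 3050.2 (log2 difference -1.52 ± 0.21 SE, adjusted p = 6.66e-04), with 2 other probe sets at -1.19 and -1.09. EIF3B fell from 5993 and 5896 to 2314 and 3397 (-1.08 ± 0.20 SE, adjusted p = 0.00334). EIF3J, whose product is a loosely bound subunit, fell from 3273 and 3608 to 2068 and 1709 (-0.86 ± 0.18 SE, adjusted p = 0.00545). EIF3G fell by 0.76 on the log2 scale (adjusted p = 0.00721). In all 4 the groups were fully separate. The calls of EIF3J and EIF3G ended with normoxia A or B left out. The log2 differences were then -0.93 and -0.79 for EIF3J and -0.75 and -0.77 for EIF3G.

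The eIF3 genes called higher were EIF3E, EIF3H and EIF3L, which encode subunits of the same structural core as EIF3K. EIF3E was at 21458 and 27470 in normoxia and 43775 and 42869 in hypoxia (log2 difference 0.83 ± 0.20 SE, adjusted p = 0.00925). EIF3H was at 13749 and 17598 in normoxia and 24789 and 26375 in hypoxia (0.72 ± 0.19 SE, adjusted p = 0.0155). EIF3L was at 21273 and 28327 in normoxia and 37644 and 37159 in hypoxia (0.61 ± 0.20 SE, adjusted p = 0.0401). In each the groups were separate and the hypoxia arrays lay closer together than the normoxia arrays. The call of EIF3L was the weakest of the 22. It was lost without normoxia A (log2 difference 0.40), hypoxia A (0.60) or hypoxia B (0.62). Without hypoxia A the calls of EIF3E (0.82) and EIF1 (0.89) were also lost.

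The other eIF3 genes were not called. EIF3A and EIF3F had log2 differences of 0.29 ± 0.17 and 0.31 ± 0.17 SE with separate groups, and EIF3I had -0.41 ± 0.16 SE (adjusted p = 0.0688). EIF3D and EIF3M had -0.13 ± 0.17 and 0.02 ± 0.18 SE with overlapping groups. EIF3J-DT, the divergent noncoding RNA beside EIF3J, was also not called (-1.23 ± 0.45 SE, adjusted p = 0.0597).

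In the cap-binding machinery, the brightest probe set of EIF4E was level between the groups. Its signal was 5949.8 and 5947 in normoxia and 5922 and 6302 in hypoxia (log2 difference 0.04 ± 0.16 SE, adjusted p = 0.864). Of the dimmer probe sets of EIF4E, those at -1.16 and -0.39 had hypoxia fully under normoxia, with mean signals of 1633 and 4403. The set at -1.16 was called lower when sets without a suffix were used (limma, adjusted p = 0.0189). Another, at 0.48, had overlapping groups and signals from 68.1 to 262. EIF4E2, a cap-binding homologue, had 0.02 ± 0.24 SE. EIF4E3 had -0.65 ± 0.36 SE (adjusted p = 0.181), with hypoxia A at 688 and hypoxia B at 321.

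EIF4EBP1, the best-known eIF4E-binding protein gene, was at 2432 and 2339 in normoxia and 2980.3 and 2680.3 in hypoxia (log2 difference 0.24 ± 0.17 SE, adjusted p = 0.287). Both hypoxia arrays lay above both normoxia arrays, by less than the test could separate from the spread. EIF4EBP2 had -0.07 ± 0.22 SE and EIF4ENIF1, the gene of an eIF4E transport protein, had 0.17 ± 0.24 SE. EIF4EBP3, EIF4A1 and EIF3CL, which lack an unshared probe set, and EIF4G3 were not analysed here.

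Of the scaffolds, EIF4G1 fell by 0.78 on the log2 scale (± 0.18 SE, adjusted p = 0.00813). Its call was lost when its probe sets were averaged (adjusted p = 0.118). The call also ended with normoxia A or B left out, although the log2 difference stayed at -0.75 and -0.81. EIF4G2, whose product lacks the eIF4E-binding part, was not called (-0.25 ± 0.17 SE, adjusted p = 0.269). The helicase group had 2 of 3 tested genes called higher, with neither EIF4A1 nor EIF4A2 among the 3 tested. EIF4B, a cofactor of the helicase, had a log2 difference of 0.82 ± 0.18 SE (adjusted p = 0.00631) with its other probe sets at 0.85 and 1.09. EIF4A3, a helicase that marks exon junctions rather than starting translation, had 0.74 ± 0.17 SE (adjusted p = 0.00868). The cofactor gene EIF4H was not called (0.19 ± 0.17 SE), and the only unshared EIF4A2 probe set did not pass the filter.

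Of the remaining factors 3 were called. EIF6, which keeps the ribosomal subunits apart and acts in maturation of the large subunit, fell from 3922 and 4109 to 1555 and 1342 (log2 difference -1.46 ± 0.17 SE, adjusted p = 3.76e-04). EIF5A, which helps ribosomes past difficult stretches, fell by 0.66 on the log2 scale (adjusted p = 0.0135), with other sets at -0.70 and -0.75. Its paralogue EIF5A2 was not called (-0.34 ± 0.27 SE). EIF5B, the subunit-joining factor gene, fell by 0.56 on the log2 scale (adjusted p = 0.0230). Its call was lost with scaling to the 75th percentile (adjusted p = 0.0766). The call also ended with normoxia A or B left out, at log2 differences of -0.62 and -0.50.

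The genes called higher, apart from EIF2AK3, all had a mean signal of 10000 or more. Among the 473 tested genes with such a signal the median log2 difference was 0.61, with 55.0% called higher and 10.4% called lower. Among the 1562 genes between 3000 and 10000 it was -0.02, with 28.4% higher and 30.2% lower. The 16 initiation factor genes at 10000 or more had a median of 0.33, with 6 called higher and 1 lower, and the 13 between 3000 and 10000 had -0.56, with 1 higher and 7 lower. Against the median of all genes at 10000 or more, EIF3L at 0.61 stood level, EIF1 at 0.94 above and EIF5A at -0.66 far under. This range is wide, with mean signals of 40585.5 for EIF1 and 31101 for EIF3L. The median of genes nearer to them in signal was not taken.

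**Figure D3:**
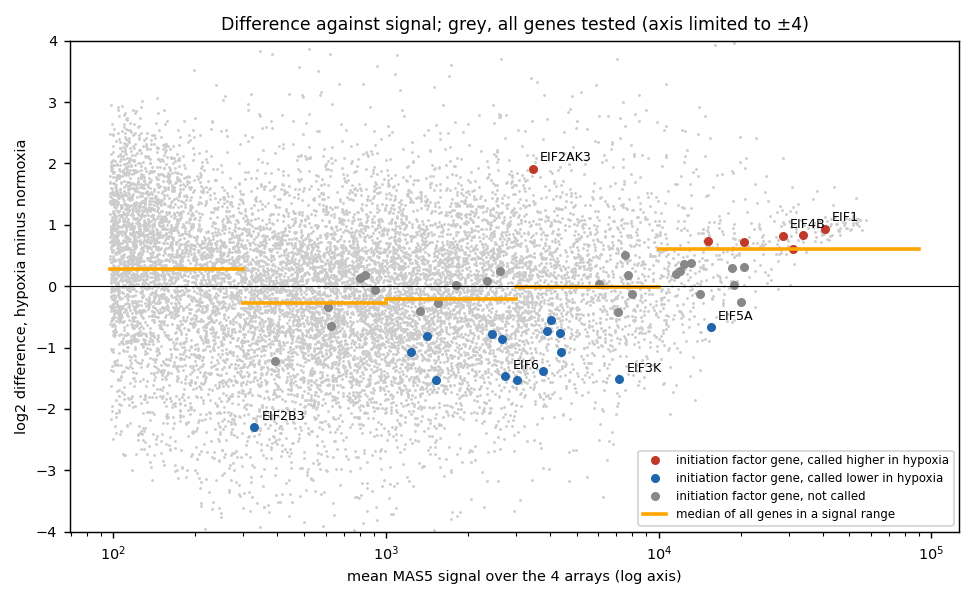
Log2 difference (vertical axis) against mean signal (logarithmic horizontal axis) for all tested genes (grey) and the tested initiation factor genes (coloured by call, EIF1AY not drawn); orange lines are the medians of all genes in each signal range. At a signal of 10000 or more the median of all genes is 0.61, and 6 of the 7 initiation factor genes called higher lie there.

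Quantile normalization forces the arrays to a common distribution, which removes such a shift whatever its origin, and the origin was not tested. Under it 2 initiation factor genes were called higher, EIF2AK3 (1.95, adjusted p = 0.00130) and EIF4A3 (0.39, adjusted p = 0.0363). EIF1 (-0.037), EIF3E (-0.033), EIF3L (-0.23), EIF3H (0.17) and EIF4B (0.039) were not called. All 15 genes called lower remained called lower, and 4 joined them: EIF3D (-0.51), EIF3I (-0.56), EIF3M (-0.58) and EIF4G2 (-0.93). The split of eIF3 into higher and lower subunits was thus seen on the deposited scale with the brightest probe sets and the intensity trend. After quantile normalization the eIF3 median was -0.53 with 0 subunits called higher. With probe sets averaged per gene on the deposited scale, EIF3H was called lower (-1.21, limma, adjusted p = 0.0139). EIF3E (-0.24) and EIF3L (0.61) were then not called. Without the intensity trend EIF2AK3 was the only initiation factor gene called higher, while 1330 of all 12636 genes were, against 1927 with it. EIF5A moved from -0.66 to -1.16.

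**Figure D4:**
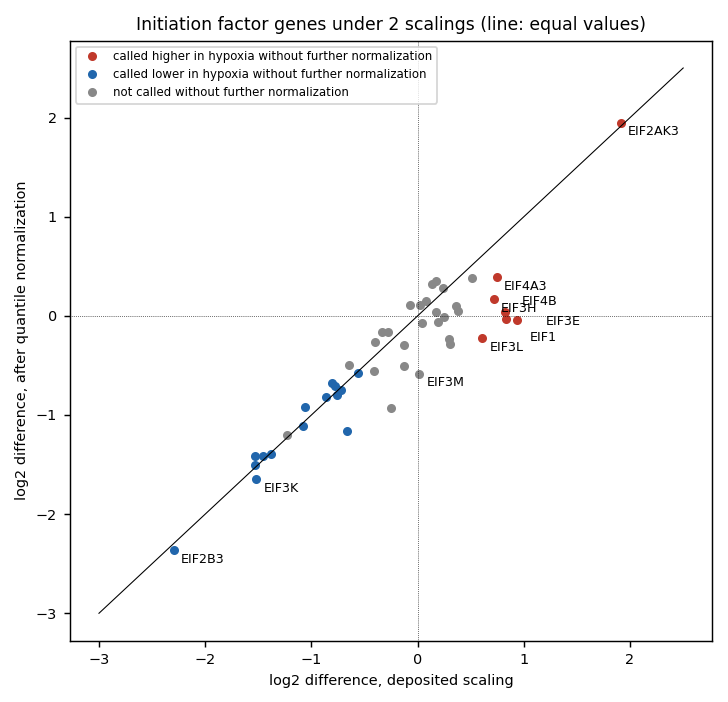
Log2 difference of each tested initiation factor gene on the deposited scale (horizontal axis) and after quantile normalization (vertical axis), coloured by the call on the deposited scale. Most lower genes lie near the line of equal values, apart from EIF5A (-0.66 to -1.16), whereas EIF1, EIF3E, EIF3H, EIF3L and EIF4B drop from between 0.61 and 0.94 to near 0.

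Probe sets of 1 gene often disagreed. Of the 22 called genes, 15 had a further probe set past the filter, and in 5 of these at least 1 had the opposite sign: EIF2AK4, EIF3B, EIF3E, EIF3H and EIF5B. The widest gap was in EIF3H, where the set used gave 0.72 and a dimmer set fell from 4745 and 5656 to 945 and 342, a log2 difference of -3.13. EIF3E had a second set at -1.32, and EIF3F, not called at 0.31, had one at -1.56. EIF3E was called lower when sets without a suffix were used (limma, adjusted p = 0.0119). EIF3B by contrast had 4 further sets, at -0.97, -1.04, -1.33 and 0.40. The sets at -1.33 and 0.40 were dim, with signals from 18.1 to 167 and from 57.7 to 157. The probe sequences were not used here, so which transcripts each set reads was not tested.

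**Figure D5:**
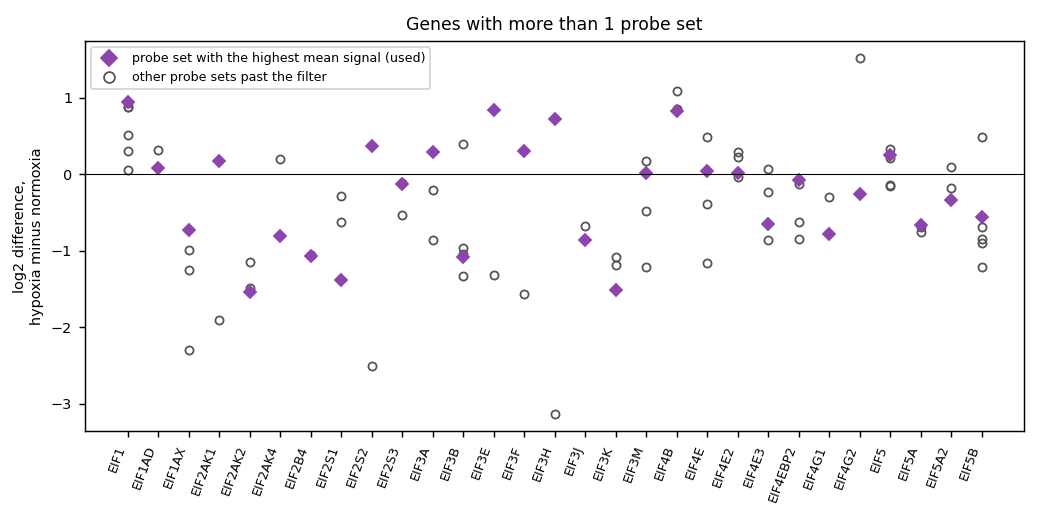
Log2 difference (vertical axis) of every probe set past the filter for genes with more than 1 such set; purple diamonds are the sets used, open circles the others. EIF1, EIF4B, EIF2AK2 and EIF3K agree across sets in sign, while EIF3E, EIF3F, EIF3H and EIF2S2 have a set that lies far under the one used.

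Some initiation factor mRNAs begin with a C followed by a run of pyrimidines, the 5′ terminal oligopyrimidine (TOP) start whose translation is known to depend on mTORC1. RefSeq promoter sequences (GRCh38.p14, 250 bases before to 50 bases after a gene's start) were matched for 44 of these genes, leaving EIF1AY out, and 39 of them had been tested. EIF2AK1, EIF2S2, EIF3A, EIF3E, EIF3G, EIF3H, EIF3L and EIF4EBP1 were not matched. A C followed by at least 4 pyrimidines at the start, in any listed promoter of the gene, was found in 8 of the 39 (20.5%), against 7.19% of the 10214 tested genes with a promoter and 4.07% of all 35116 promoters. The windows of 15 bases before and 15 from the start are shown because these 8 genes share a start that the choice by name did not use. Capitals mark the pyrimidine run from the first transcribed base.
EIF3F (chr11:7987322-7987351, + strand): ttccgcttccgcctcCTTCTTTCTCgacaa
EIF3D (chr22:36529152-36529181, - strand): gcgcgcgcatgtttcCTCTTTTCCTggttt
EIF3K (chr19:38619173-38619202, + strand): ttccgtttccaccacCTCTTCCTgttcccg
EIF3M (chr11:32583816-32583845, + strand): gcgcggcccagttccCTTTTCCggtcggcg
EIF2A (chr3:150546772-150546801, + strand): tcacccgagcggtttCTCTTTCCgggacaa
EIF2D (chr1:206612451-206612480, - strand): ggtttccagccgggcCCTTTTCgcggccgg
EIF2S3 (chrX:24054941-24054970, + strand): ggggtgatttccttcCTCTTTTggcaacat
EIF4B (chr12:53006441-53006470, + strand): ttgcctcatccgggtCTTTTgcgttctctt

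Matched genes with either kind of start were called in both directions. Only 4 of the 7 genes called higher were matched, with EIF3E, EIF3H and EIF3L missing. Of the 15 called lower 14 were matched, with EIF3G missing. Of the 8 genes with the pyrimidine run, EIF4B was called higher, EIF3K was called lower and 6 were not called, with a median log2 difference of -0.05. Of the 31 genes without such a start, 3 were called higher and 13 lower, with a median of -0.41. The difference between these sets was not tested. Over all tested genes the medians were 0.10 for the 734 with this start, of which 22.3% were called higher and 20.3% lower, and -0.09 for the rest, of which 14.8% were called higher and 24.4% lower. For comparison, genes with strong differences and no such start begin as follows, all in lower case.
EIF2AK3 (chr2:88627450-88627479, - strand): ggcgatgtccgagataggctgtcactcagg
EIF2S1 (chr14:67360313-67360342, + strand): gcgaggaggttccgcatgcgcggtggagtg
EIF6 (chr20:35284703-35284732, - strand): ttacttggtaagctggtgtgaggggaacct

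The promoters were also searched on both strands for the E-box CACGTG, a palindrome bound by MYC and related factors. It was present in 11 of the 39 tested genes (28.2%), against 12.5% of all tested genes with a promoter and 7.26% of all promoters. These 11 held 2 of the 4 genes called higher with a promoter and 4 of the 14 called lower. EIF4E, which was not called, and EIF4G1, which fell, each had a pair of boxes. EIF4A3, which was called higher, and EIF2B3, which fell, had 1 box each. The boxes of these genes are shown because the same letters stand before genes of each kind of call, with the E-box in capitals.
EIF4E, 225 bases before the start (chr4:98929343-98929368, - strand): acccatcggcCACGTGaccagtcctt
EIF4E, 72 bases before the start (chr4:98929190-98929215, - strand): acatatccgtCACGTGgccagaagct
EIF4G1, 144 bases before the start (chr3:184314452-184314477, + strand): ctgtggctgtCACGTGacggggcggg
EIF4G1, 67 bases before the start (chr3:184314529-184314554, + strand): ctgcgccggtCACGTGggggcgccgg
EIF4A3, 121 bases before the start (chr17:80147234-80147259, - strand): agttccctttCACGTGacgaagagtg
EIF2B3, 179 bases before the start (chr1:44986759-44986784, - strand): cagagggacaCACGTGtcgaatgctc

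The core letters of the hypoxia response element were searched in the same way, in their A form, ACGTG, and their G form, GCGTG; every E-box also contains the A form. The A form was found in 20 of the 39 tested genes (51.3%), against 31.8% of all tested genes with a promoter and 21.4% of all promoters. The G form was found in 29 (74.4%), against 57.5% and 36.5%. EIF2AK3 had the A form and not the G form. The G form was found in 12 of the 14 genes called lower and 2 of the 4 called higher, and the A form in 6 and 4. Such matches describe the letters only.

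The CCAAT box was found in 19 of the 39 genes (48.7%, against 43.3% of tested genes and 34.6% of promoters). The CRE palindrome bound by ATF and CREB factors, TGACGTCA, was found in 0, against 3.68% of tested genes and 1.85% of promoters.

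Other genes of the translation pathway were taken from lists. Their counts stand beside 15.3% of all genes tested called higher and 22.8% called lower. Of 13 tested helpers of initiation outside the EIF names, 2 rose and 4 fell. BZW2, which encodes an eIF5-like regulator, fell from 7302 and 7176 to 1793 and 1545 (log2 difference -2.10 ± 0.17 SE, adjusted p = 6.99e-05). DENR, which acts in reinitiation, fell by 1.51 and the helicase gene DHX29 by 0.98 on the log2 scale. PABPC1, the gene of the poly(A)-binding protein that joins eIF4G, was called higher (1.07 ± 0.21 SE, adjusted p = 0.00403) but had 0.12 and no call after quantile normalization.

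Of 9 tested elongation factor genes, 2 rose and 4 fell. The mitochondrial factor genes TUFM, TSFM and GFM1 fell by 1.56, 1.55 and 1.48 on the log2 scale, and EEF2K, whose product inhibits the elongation factor eEF2, fell by 1.11. TSFM was at 204 on hypoxia A and 662 on hypoxia B, and it was not called after quantile normalization (-1.45, adjusted p = 0.0606). The 2 higher genes, named after their values were seen, were EEF1A1 (1.09 ± 0.23 SE) and EEF2 (0.84 ± 0.21 SE). Both had mean signals far above 10000 and were not called after quantile normalization (0.08 and -0.16), where 0 elongation genes were higher and 5 lower. Of 4 termination factor genes 1 was called, GSPT1 (0.79 ± 0.25 SE, adjusted p = 0.0319), and it was not called after quantile normalization (0.69, adjusted p = 0.0542).

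Regulators of eIF2 phosphorylation had 4 genes higher and 2 lower of 11 tested, or 2 and 2 after quantile normalization. PPP1R15B, which brings a phosphatase to eIF2 alpha without need of stress, rose from 4641 and 5015 to 13775 and 13977 (log2 difference 1.52 ± 0.16 SE, adjusted p = 1.97e-04), and after quantile normalization it stood at 1.35. Its stress-induced relative PPP1R15A, named after its value was seen, was not called (0.21 ± 0.20 SE). IMPACT, which encodes an inhibitor of GCN2 activation, fell by 1.60, and the phosphatase subunit gene PPP1CA fell by 0.82 on the log2 scale. Its relatives PPP1CC and PPP1CB were named after their values were seen. PPP1CC was called higher (0.61 ± 0.16 SE) but not after quantile normalization (0.15), and PPP1CB was not called (0.39 ± 0.22 SE). HSPA5, the chaperone gene whose product restrains PERK, was called higher (1.01 ± 0.18 SE) and was not called after quantile normalization (0.21).

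Genes whose transcription or translation follows eIF2 alpha phosphorylation had 2 higher and 3 lower of 9 tested, against 15.3% and 22.8% of all genes. ATF3 rose from 2172 and 2300.3 to 11214 and 11275 (log2 difference 2.32 ± 0.16 SE), whereas CHAC1, SLC7A11 and ASNS fell by 1.15, 0.85 and 0.84 on the log2 scale. DDIT3, the other gene called higher, had 0.83 ± 0.24 SE and ATF4, the central factor, was not called (0.51 ± 0.20 SE, adjusted p = 0.0788). Both were named after their values were seen. After quantile normalization ATF4 stood at -0.01, and DDIT3 stayed called at 0.97. In the mTORC1 and MNK list, 4 rose and 3 fell of 15 tested, or 2 and 2 after quantile normalization. The counts of the mTORC1 and MNK list, the helpers of initiation, the elongation factors and the targets changed in fits with 1 array left out. The shares of all genes called changed in these fits too, so 15.3% and 22.8% are no measure for them. Whether the lists changed more than all genes was not tested.

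DDIT4, whose product inhibits mTORC1, rose from 7375 and 8129 to 37041 and 26945 (log2 difference 2.03 ± 0.20 SE, adjusted p = 1.47e-04). MKNK2, the gene of a kinase that phosphorylates eIF4E, rose from 6672 and 8277 to 29249 and 23832 (1.83 ± 0.19 SE, adjusted p = 2.00e-04). Both stayed called after quantile normalization, at 1.64 and 1.49. TSC2, which encodes a brake on mTORC1, fell from 987 and 730.1 to 314 and 257, and MLST8, the gene of an mTORC1 subunit, fell by 1.27 on the log2 scale. The genes DHPS and DOHH, which make the hypusine residue of eIF5A, were not called (0.03 ± 0.25 and -0.14 ± 0.41 SE).

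The 22 calls differed in how firmly they stood. EIF2AK2, EIF2B1, EIF2S1, EIF3K and EIF6 kept their direction and call in every alternative setting in which they were tested, 15 for EIF3K and 16 for the others. When 1 array was left out, the median log2 difference of the initiation factor genes lay between -0.19 and -0.11. Fewer of these genes were called without a normoxia array, and the share of all genes called fell as well. Without a hypoxia array the share of all genes called rose. With 1 array left in a group, the spread comes from the other group alone. Without the intensity trend in limma 7 genes were called: EIF2AK3, EIF2B4 and the 5 genes just named. The share of all genes called was then 24.9%, against 38.0% with the trend.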

How the data were processed

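Gene expression was measured on 4 arrays with 54675 probe sets. The authors deposited 1 intensity per probe set on a linear scale, computed by MAS5 according to their notes to GEO (per the submitters' processing notes). Its version was not given in the sources used here. A trimmed mean without the lowest and highest 2% was 499.9 on every array. Names came from the platform annotation: 41091 probe sets listed 1 gene, 1801 several, 11721 none and 62 were controls; 19735 genes matched a current RefSeq symbol. A gene was tested if its brightest probe set had a mean of 97.4 or more, the median over probe sets. Of 53 members 48 passed. Values were taken as log2(signal + 23.7), 23.7 being the 25th percentile of all values, which understates changes of dim genes.

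Groups were compared over 12636 genes with limma 3.58.1 in R 4.3.3 (lmFit, eBayes with an intensity trend, two-sided, Benjamini-Hochberg adjusted), without a replicate block. The script was tested on simulated data. Figures used Python 3.11.15 and matplotlib 3.10.9.

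Members, complexes and lists were chosen with earlier results of these data known. All tested members are named; array signals are given for the 12 called members with the largest change, called kinases, called members opposite in sign to their complex, and a few genes added after their values were seen (EIF2AK1, EIF4E, EIF4EBP1). Of each list up to 4 called genes are named, besides those marked as named after their values were seen. The promoter motifs were also chosen after values were seen. Alternatives were other pseudocounts, scalings, filters, probe set choices and variance models, a stricter threshold, a replicate block, and leaving out each array.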

Additional observations from a re-analysis of the deposited data

How the results depend on the processing

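The calls of initiation factor genes depended on the scaling, the probe set, the variance model and single arrays. The number called, 22, was 7 without an intensity trend (1 higher, 6 lower), and 13 to 25 when 1 array was left out (7 to 17 lower). The number higher, 7, was 2 after quantile normalization, 0 with the hybridization controls (29 lower) and 3 with probe sets averaged per gene. The share of all genes called, 38.0%, became 24.9% without the trend, 44.0% with hybridization controls and 26.8% with averaged probe sets. It also changed when 1 array was left out. Of all 12636 genes 1927 were called higher, against 1863 after quantile normalization, 52 with hybridization controls (5514 lower) and 1400 with averaged probe sets. Whether the initiation factor genes changed more than all genes was not tested. The median of -0.13 became -0.27 with quantile normalization, 0.022 with the 75th percentile, -1.58 with the hybridization controls, -0.32 with the mean of probe sets and -0.27 with probe sets without a suffix. Under quantile normalization EIF1 (-0.037), EIF3E (-0.033) and EIF3L (-0.23) lost their call with a change of sign, and EIF3M became called lower (-0.58). With the hybridization controls, which moved the median of all genes to -1.40, the sign turned in 11 genes without a call on either side, and in these with a call on either side: EIF1 (-0.52), EIF3A (-1.16), EIF3E (-0.62), EIF3F (-1.15), EIF3H (-0.74), EIF3L (-0.85), EIF3M (-1.44), EIF4A3 (-0.71), EIF4B (-0.63) and EIF4H (-1.26). The sign turned with the mean of probe sets for EIF2S2 (-1.07), EIF3E (-0.24) and EIF3H (-1.21). Of these, EIF2S2 and EIF3H were then called lower (limma, adjusted p = 0.0124 and 0.0139) and EIF3E was not called. It turned with sets without a suffix for EIF2AK4 (0.20) and EIF3B (0.40), which were then not called. It also turned there for EIF3A (-0.86), EIF3E (-1.32), EIF3F (-1.56) and EIF4E (-1.16), which were then called lower (adjusted p from 0.00846 to 0.0418). The cause of these changes was not tested, apart from the choice of probe set in the last 2 settings. A replicate block on the letters A and B gave 24 calls, 8 higher and 16 lower, among them all 22; same-letter deviations correlated at 0.09 over genes, and the labels do not say what a letter shares. Of 749 gene values under alternatives, 649 kept direction and call or stayed uncalled, 55 lost the call, 22 gained it and 23 changed sign with a call on either side.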
